A study of Mus musculus with 2031 samples.

Results

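The genes described here are 10 rows of the count table, out of 49671 gene identifiers, that encode enzymes of glutathione synthesis, glutathione conjugation and peroxide removal: *Gclc*, *Gclm*, *Gstm1*, *Gstm3*, *Gstm5*, *Mgst1*, *Gpx1*, *Gpx4*, *Prdx6* and *Fam213a*. They were picked by symbol, with the levels of several of them in these same cells already known, so their differences between astrocyte subtypes and between cell types are given below as a description and not as evidence. The series holds single cells of adult C57BL/6J mice at postnatal day 56, untreated, sorted by flow cytometry as positive for ACSA-2 (the pan-astrocytic surface protein ATP1B2) and negative for the oligodendrocyte antigen O1, from cortex and hippocampus. Libraries were made with SMART-seq2, which amplifies full-length cDNA of polyadenylated RNA, has no molecular identifiers and keeps no strand. There were 4 cell suspensions, 2 per region: cortex 1 and cortex 2 were each 1 animal and came from the same litter, while hippocampus 1 and hippocampus 2 were each pooled from several littermates, a different set for each, so that brain area cannot be told apart from litter and from pooling.

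Glutathione is the main low-molecular-weight thiol of the cell. Its rate-limiting step joins glutamate to cysteine and is carried out by glutamate-cysteine ligase, a dimer of a catalytic subunit (GCLC) and a modifier subunit (GCLM). Glutathione transferases couple glutathione to electrophiles, glutathione peroxidases use it to reduce peroxides, and peroxiredoxins reduce peroxides through a reactive cysteine. In the brain, astrocytes are known as a main store of glutathione and as a supplier of its precursors to neurons, and many of these genes are known targets of the transcription factor NRF2, which binds the antioxidant response element.

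Per-cell counts of 2030 cells were used, with 600758 to 3238215 counts in genes per cell (median 1458411). The study's own assignment gave a type to 1982 of them, of which 1781 were astrocytes: AST1 held 657, AST2 held 555, AST3 held 452, AST4 held 91 and AST5 held 26. Mural cells numbered 27 in cortex 1, 12 in cortex 2, 48 in hippocampus 1 and 47 in hippocampus 2. Of 30 endothelial cells, 9 were from cortex 1, 3 from cortex 2, 6 from hippocampus 1 and 12 from hippocampus 2. The 17 neurons came from hippocampus alone, 8 from hippocampus 1 and 9 from hippocampus 2. The 11 microglial and 9 oligodendrocytic cells were too few per suspension for any comparison. The paper treats the types other than astrocytes as contaminating cells of the sort. Counts were summed over the cells of a type within a suspension, sums of fewer than 5 cells were left out, and a level is given in CPM, the gene's counts scaled to a fixed total of 1000000 gene counts of such a sum, so that n counts suspensions and not cells. All 10 astrocyte markers (among them *Aldh1l1*, *Aqp4* and *Slc1a3*) had counts in every sum of astrocytes, together 43623 to 46207 CPM over all astrocytes of a suspension against 492 to 512 CPM in neurons, 731 to 894 CPM in endothelial and 3170 to 3485 CPM in mural sums. The 7 mural markers made up 105.6 to 146.97 CPM of the astrocyte sums against 49656 to 59936 CPM of the mural and 10008 to 17354 CPM of the endothelial sums, the 6 endothelial markers at most 2.26 CPM, the 5 neuronal markers 10.6 to 19.9 CPM, the 4 microglial markers 15.0 to 38.1 CPM and the 4 oligodendrocytic markers 56.1 to 71.2 CPM. The part of these markers of other types in the levels below was not tested.

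Together the 10 genes made up 0.901% of gene counts in astrocytes of cortex 1, 0.856% in cortex 2, 0.915% in hippocampus 1 and 0.874% in hippocampus 2. By subtype the share lay between 0.924% and 1.02% in AST1, 0.652% and 0.831% in AST2, 0.762% and 0.946% in AST3, and at 0.614% and 0.666% in AST4. In the other types with at least 5 cells in a suspension the share lay between 0.0493% and 0.260% per sum. Per kilobase of exon, which allows genes to be ordered, *Gstm1* stood first (1633 ± 329.9 CPM per kilobase, SD, n = 4), followed by *Gstm5* (932 ± 55.9) and *Prdx6* (889 ± 139.4), and these 3 ranked 18th, 32nd and 35th among the 26068 genes with counts and a known exon length. These SDs cover both regions. *Prdx6* stood above *Gstm5* in cortex (1000 to 1015 against 855 to 989 CPM per kilobase) and below it in hippocampus (742 to 797 against 940 to 943). *Fam213a* (195.8 ± 68.0 CPM per kilobase), *Gpx4* (93.7 ± 8.23), *Mgst1* (52.9 ± 33.2) and *Gpx1* (29.6 ± 6.08) came next, and the SD of *Mgst1* reached into the levels of both its neighbours. *Gclm* (15.2 ± 4.80 CPM per kilobase), *Gclc* (4.60 ± 1.51) and *Gstm3* (0.353 ± 0.107) closed the order at ranks 2863, 6539 and 14408. The genes thus covered more than 3 orders of magnitude in the same cells.

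**Figure D1:**
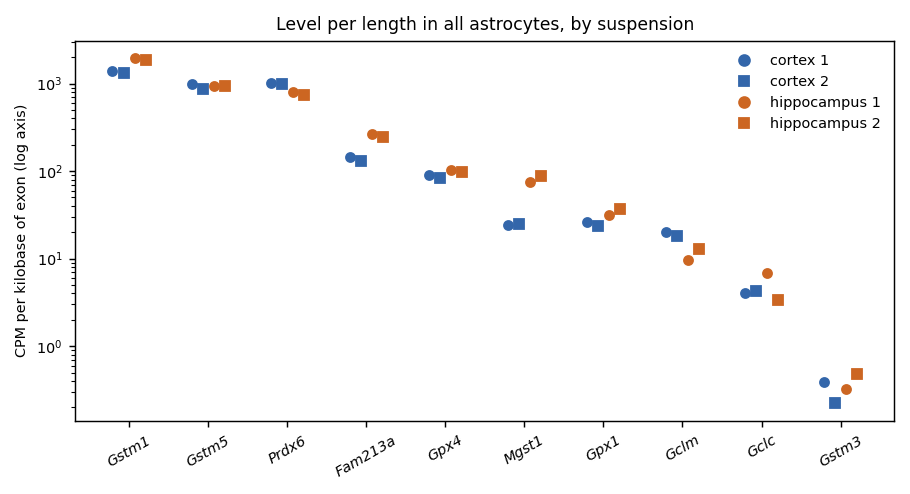
Level of each gene in all astrocytes of a suspension, in CPM per kilobase of exon on a log axis, with 1 point per suspension (blue cortex, orange hippocampus), ordered from the highest to the lowest mean. *Gstm1*, *Gstm5* and *Prdx6* sit near 1000 CPM per kilobase, *Gstm3* below 1, and the orange points of *Mgst1* and *Fam213a* lie above the blue ones.

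The share of astrocytes with at least 1 count followed the same order only in part. *Prdx6* was counted in 99.4% of astrocytes, *Gstm1* in 98.2% and *Gstm5* in 96.2%, *Fam213a* in 76.4% and *Gpx4* in 69.6%. *Gclm* (28.0%), *Mgst1* (26.7%), *Gpx1* (16.96%) and *Gclc* (3.93%) were counted in a minority. Where they were counted, the median level was high for *Gclm* (307.1 CPM) and *Gclc* (334.2 CPM). Their sums rest on this minority, and those of *Gclc* on few cells. *Gstm3* was the reverse: 33.3% of astrocytes had a count, but the median level in those cells was 0.826 CPM, and after every cell was thinned to 50000 counts the share was 1.84%.

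**Figure D2:**
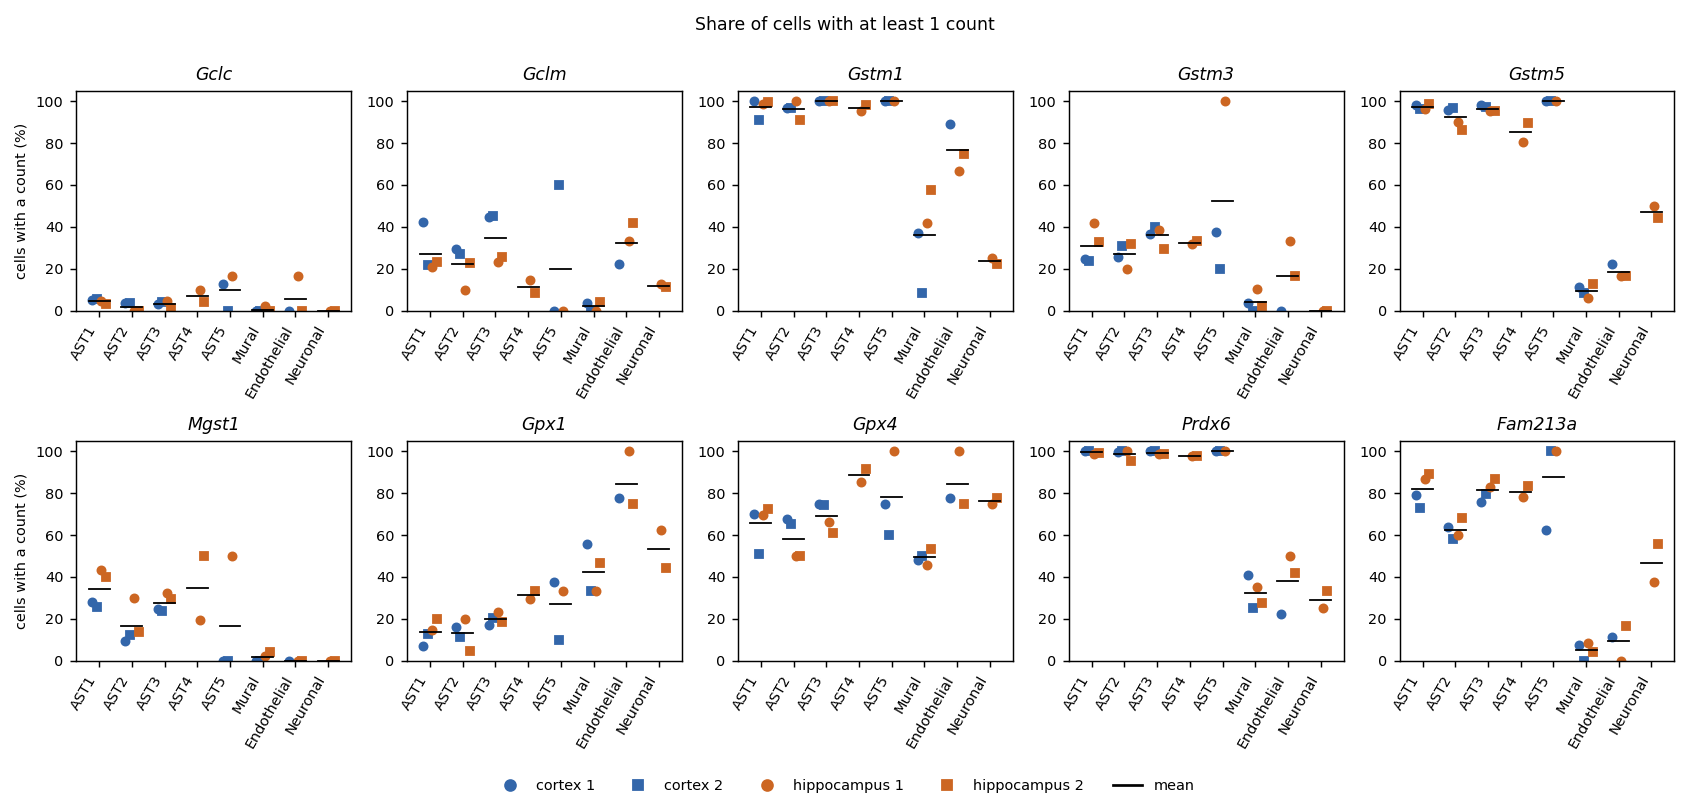
Share of cells with at least 1 count of each gene (percent), by cell type on the horizontal axis, with 1 point per suspension with at least 5 cells and a bar for the mean. *Prdx6* and *Gstm1* are above 90% in every astrocyte subtype, *Gstm5* falls to 80.5% in AST4 of hippocampus 1, while *Gclc* stays below 17% in every type.

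Glutathione synthesis. *Gclc* (ENSMUSG00000032350.9, chr9:77754535-77794485, + strand; all gene positions are GENCODE genes of GRCm38), the catalytic subunit, stood at 15.2 and 15.9 CPM in astrocytes of cortex 1 and 2 and at 25.6 and 12.6 CPM in those of hippocampus 1 and 2. The regions overlapped, and only 2.80% to 5.09% of the astrocytes of a suspension had a count, so differences of *Gclc* between subtypes were not detectable at this depth: AST1 held 16.8 ± 4.17 CPM (n = 4), AST3 11.7 ± 9.43 (n = 4), and both hippocampal AST2 sums, of 10 and 22 cells, were at 0. None of the 17 neurons had a count of *Gclc*, which allows a share of up to 17.6% of such cells, above the share in astrocytes, so that no difference from neurons was detectable. This limit covers counting error only.

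*Gclm* (ENSMUSG00000028124.15, chr3:122245557-122270732, + strand), the modifier subunit, was higher in level than *Gclc* in every suspension, also per kilobase. Its astrocyte level was 126.2 CPM in cortex 1 and 115 CPM in cortex 2 against 61.2 CPM in hippocampus 1 and 80.6 CPM in hippocampus 2, both hippocampal values lying below both cortical ones. The same order appeared in AST1 (147.5 and 127.2 CPM in cortex, 64.9 and 92.2 CPM in hippocampus) and in AST3 (132.3 and 136.6 CPM against 71.9 and 75.6 CPM), again without overlap. The fitted log2 fold changes, from the model of regions below, were −0.77 ± 1.87 (SE) and −0.80 ± 1.87, and neither was called. Over all astrocytes, the regions did not overlap for 46% of 19160 genes. Here and below, the share of all genes without overlap within a subtype was not counted. In AST4 the level was 33.8 CPM in hippocampus 1 and 22.8 CPM in hippocampus 2, below every AST1 and AST3 sum. Endothelial sums (85.8, 63.9 and 119.8 CPM) lay in the range of astrocytes, whereas 3 of 4 mural sums were at or near 0.

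Glutathione transferases. The mu-class genes *Gstm1*, *Gstm3* and *Gstm5* lie in a cluster of 7 *Gstm* genes on chromosome 3. *Gstm1* occupies chr3:108012255-108017973 (ENSMUSG00000058135.12, − strand), *Gstm3* chr3:107963696-107969283 (ENSMUSG00000004038.9, − strand) and *Gstm5* chr3:107895821-107898686 (ENSMUSG00000004032.10, + strand). Because their transcripts are alike, every 75-base stretch was compared with all other transcripts: 12.3% of the stretches of *Gstm1* occur elsewhere (in *Gm8834*, *Gstm2-ps1* or *Gstm3*), 21.6% of those of *Gstm3*, and 10.1% of those of *Gstm5*, the last with the antisense gene *4933431E20Rik*. The reads were paired, so a read in such a stretch can still be placed by its mate. These shares count positions with exact matches and do not give the part of reads that could not be assigned. Reads of *Gstm5* and its antisense partner cannot be told apart without strand. *Gstm2-ps1* stood at 26.9 to 38.95 CPM in astrocytes and *4933431E20Rik* at 146.7 to 194.7 CPM. *Mgst1* (ENSMUSG00000008540.11, chr6:138140316-138156755, + strand), a membrane-bound transferase of the endoplasmic reticulum and mitochondria, shared no such stretch.

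The 250 bases upstream of the first listed RefSeq start (GRCm38.p6) are shown for the 3 *Gstm* genes of the cluster and for *Mgst1* and *Gclm*. *Gstm3* lay orders of magnitude below *Gstm1* and *Gstm5* in level, and *Mgst1* and *Gclm* lay on opposite sides in the comparison of regions. Of the 10 genes, 8 had an entry, and *Gclc* and *Prdx6* are named only. Capitals mark the antioxidant response element core TGACNNNGC, the GC box GGGCGG and the TATA box TATAAA, searched on both strands, so that some appear as the reverse complement. The sequences run 5′ to 3′ on the strand of the gene, from chr3:108017974-108018223 (− strand), chr3:107969175-107969424 (− strand), chr3:107895604-107895853 (+ strand), chr6:138140277-138140526 (+ strand) and chr3:122245307-122245556 (+ strand).
Gstm1: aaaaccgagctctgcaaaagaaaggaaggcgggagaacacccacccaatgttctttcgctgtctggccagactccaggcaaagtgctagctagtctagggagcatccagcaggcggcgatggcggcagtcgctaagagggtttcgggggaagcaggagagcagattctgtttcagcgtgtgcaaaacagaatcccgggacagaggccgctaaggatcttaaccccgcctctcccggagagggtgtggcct
Gstm3: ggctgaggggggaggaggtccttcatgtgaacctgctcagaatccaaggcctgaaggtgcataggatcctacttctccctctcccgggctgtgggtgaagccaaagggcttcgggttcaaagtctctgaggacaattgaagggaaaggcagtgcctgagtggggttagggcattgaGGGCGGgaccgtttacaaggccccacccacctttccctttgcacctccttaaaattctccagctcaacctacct
Gstm5: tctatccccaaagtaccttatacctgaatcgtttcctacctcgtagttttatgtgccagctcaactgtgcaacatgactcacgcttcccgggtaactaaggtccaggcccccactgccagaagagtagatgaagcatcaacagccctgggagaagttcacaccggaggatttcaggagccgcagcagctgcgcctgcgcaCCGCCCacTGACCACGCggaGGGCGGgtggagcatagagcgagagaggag
Mgst1: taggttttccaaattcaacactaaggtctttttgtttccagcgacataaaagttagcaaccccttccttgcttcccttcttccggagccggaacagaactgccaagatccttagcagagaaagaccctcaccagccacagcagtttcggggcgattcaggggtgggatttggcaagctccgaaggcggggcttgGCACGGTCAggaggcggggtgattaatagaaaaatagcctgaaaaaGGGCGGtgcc
Gclm: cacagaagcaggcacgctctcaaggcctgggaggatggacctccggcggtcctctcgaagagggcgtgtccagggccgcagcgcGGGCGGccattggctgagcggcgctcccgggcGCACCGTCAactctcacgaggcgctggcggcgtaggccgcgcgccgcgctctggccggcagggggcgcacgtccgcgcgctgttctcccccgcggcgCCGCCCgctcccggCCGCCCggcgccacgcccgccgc
The windows of *Gstm3*, *Gstm5* and *Mgst1* reach into the GENCODE genes given above, and all marks of *Gstm3* and *Mgst1* lie inside them. The antioxidant response element core was found 42 bases before the RefSeq start of *Gstm5* and 56 bases before that of *Mgst1*. It lay farther upstream of *Gclm* and was not in the shown windows of *Gstm1* and *Gstm3*. The core also occurred at 1 site within the GENCODE gene of *Fam213a*. This site lies in 2 overlapping windows of the 5 listed, 25 and 46 bases before their respective starts. Of 32851 promoter windows of this length, 10.2% held that core, 32.7% a GC box and 12.4% a TATA box. A match is a description of the letters, and no binding was measured here.

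*Gstm1* was counted in nearly every astrocyte. Its level over all astrocytes was 2059 CPM in cortex 1, 1921 CPM in cortex 2, 2884 CPM in hippocampus 1 and 2758 CPM in hippocampus 2. Both hippocampal values were above both cortical ones, and this held within AST1 (2274 and 2233 CPM in cortex, 2927 and 2866 CPM in hippocampus), AST2 (1835 and 1624 against 2335 and 2350.2 CPM) and AST3 (2249 and 2233 against 2855 and 2625 CPM). Per 1000 counts of the added spike-in RNA the order within AST3 was turned (64.04 and 62.3 in cortex, 55.6 and 57.8 in hippocampus), and the regions overlapped within AST2. Outside astrocytes *Gstm1* stood at 775 ± 228.8 CPM in endothelial cells (n = 3) and 254.9 ± 141.6 CPM in mural cells (n = 4), and at 8.76 and 30.02 CPM in the neuronal sums. Endothelial cells with a count made up 76.7% of the type, mural cells 43.3% and neurons 23.5%.

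*Gstm3* ran between 0.291 and 0.627 CPM over all astrocytes of a suspension, with the regions overlapping. It shares stretches with *Gstm1*, which was far more abundant, and the origin of its counts was not tested. *Gstm5* stood at 1264, 1093, 1202 and 1206 CPM in cortex 1, cortex 2, hippocampus 1 and hippocampus 2, so the regions overlapped. In AST4 it was 523 and 558 CPM in the hippocampal suspensions, below every other astrocyte sum in CPM, though per 1000 spike-in counts (11.7 and 14.1) it overlapped with hippocampal AST2 (16.9 and 12.7), while AST1 reached 1373 and 1451 CPM in the same suspensions. Mural (37.8 ± 16.3 CPM, n = 4), endothelial (61.7 ± 22.8, n = 3) and neuronal sums (127.4 and 148 CPM) were all lower than any astrocyte sum.

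*Mgst1* differed most between the regions. It stood at 48.2 CPM in cortex 1 and 50.2 CPM in cortex 2 against 151.6 CPM in hippocampus 1 and 175.8 CPM in hippocampus 2. By plate, the 16 cortical plates ranged from 22.9 to 88.3 CPM with a median of 46.4, and the 16 hippocampal plates from 86.5 to 248.8 CPM with a median of 167.04, so that the plates overlapped only from 86.5 to 88.3 CPM. The plates divide the same 4 suspensions, 8 plates each, and add no replicates. The share of all genes whose plates separate by region was not counted. In AST1 the sums were 80.7 and 89.3 CPM in cortex and 176.9 and 193.4 CPM in hippocampus, and in AST3 54.2 and 58.1 against 93.1 and 104.5 CPM. In AST2 the cortical sums (37.7 and 39.2 CPM) lay between those of hippocampus 2 (35.3 CPM, 22 cells) and hippocampus 1 (125.8 CPM, 10 cells). No endothelial cell or neuron had a count, which allows a share of up to 11.1% of the 27 endothelial cells in the sums and up to 17.6% of the 17 neurons, against 26.7% of astrocytes.

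**Figure D3:**
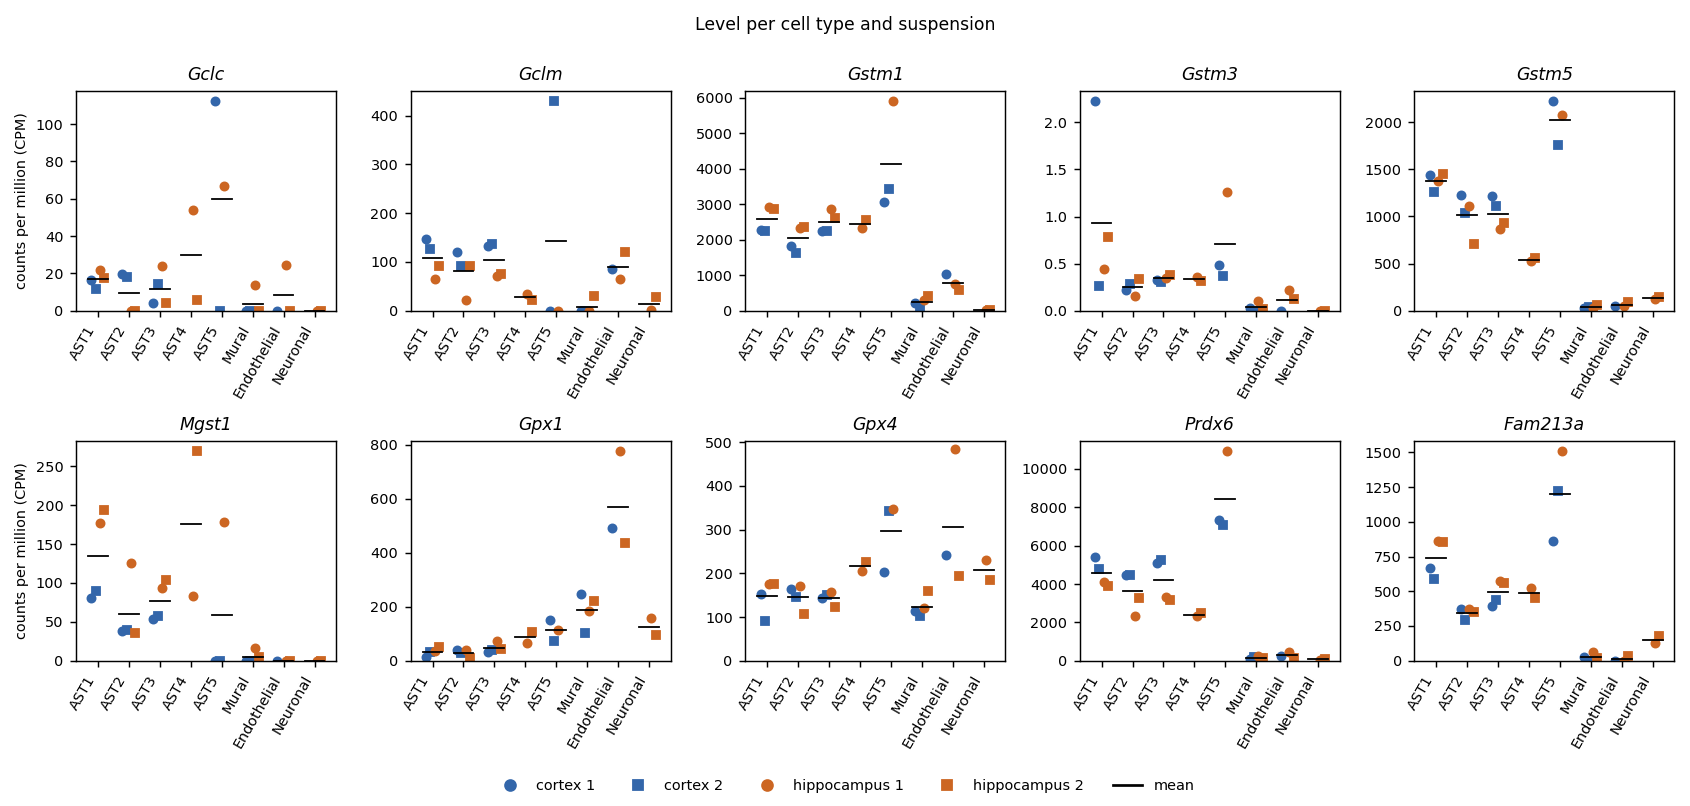
Level of each gene (CPM, linear axis from 0) by cell type on the horizontal axis, with 1 point per suspension with at least 5 cells and a bar for the mean. *Gstm1*, *Gstm5*, *Prdx6* and *Fam213a* are highest in astrocytes, *Gpx1* is highest in endothelial cells (568 CPM), and *Gpx4* has no such split.

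Glutathione peroxidases. *Gpx1* (ENSMUSG00000063856.7, chr9:108338903-108340343, + strand) encodes the cytosolic selenoenzyme that reduces hydrogen peroxide. It was the only one of the 10 genes whose mean level was higher in mural, endothelial and neuronal cells alike than in astrocytes. Astrocytes held 37.5, 33.998, 45.6 and 53.6 CPM in cortex 1, cortex 2, hippocampus 1 and hippocampus 2. Endothelial sums held 492, 777 and 435 CPM, mural sums 247.6, 102.9, 185.5 and 221.3 CPM, and neuronal sums 158 and 95.4 CPM. None of these overlapped with the sums of all astrocytes in CPM. The fitted difference in neurons, from the model of cell types below, was not called (log2 fold change 0.34 ± 0.50). The 11 microglial cells pooled held 439.9 CPM with a count in 90.9% of cells, and the 9 oligodendrocytic cells none. Among astrocytes, AST4 (66.6 and 106.4 CPM) and AST5 (150.8, 73.005 and 112.96 CPM) lay at the upper end, AST4 overlapping with AST3 (33.6 to 72.8 CPM).

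*Gpx4* (ENSMUSG00000075706.10, chr10:80047166-80056439, + strand) encodes the selenoenzyme that reduces lipid hydroperoxides in membranes and guards against ferroptosis. Its level was 155, 145, 177.3 and 168 CPM in astrocytes of cortex 1, cortex 2, hippocampus 1 and hippocampus 2, 123.7 ± 24.8 CPM in mural cells (n = 4), 306.3 ± 155 CPM in endothelial cells (n = 3) and 207.9 ± 31.5 CPM in neurons (n = 2). Of its 75-base stretches 46.2% also occur in other transcripts, such as the pseudogene *Gpx4-ps2*, which stood at 15.4 to 18.2 CPM. Its level is therefore uncertain to the extent that read pairs could not be assigned.

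Peroxiredoxins. *Prdx6* (ENSMUSG00000026701.15, chr1:161240112-161251219, − strand), which encodes a peroxiredoxin that draws its electrons from glutathione and also has phospholipase activity, held the most counts of the 10 genes. Its astrocyte level was 4878 CPM in cortex 1 and 4804 CPM in cortex 2 against 3830.2 CPM in hippocampus 1 and 3565 CPM in hippocampus 2, both hippocampal values lying below. Its 16 hippocampal plates (3225 to 4185 CPM) all lay below its 16 cortical plates (4249.7 to 5547 CPM), though the plates divide the same 4 suspensions. How many of all genes have plates that separate by region was not counted. The same order was present in AST1 (5415 and 4799 against 4081 and 3901 CPM), AST2 (4493 and 4444 against 2349 and 3250.0 CPM) and AST3 (5110.4 and 5277 against 3322 and 3158 CPM). AST4 sums were 2323 and 2468 CPM. Mural (166.9 ± 61.96 CPM, n = 4), endothelial (291.8 ± 165.7, n = 3) and neuronal sums (48.1 and 107.5 CPM) were far below.

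*Fam213a* (ENSMUSG00000021792.15, chr14:40993740-41013788, − strand) encodes a peroxiredoxin-like protein. It stood at 425 CPM in cortex 1, 385 CPM in cortex 2, 775 CPM in hippocampus 1 and 723 CPM in hippocampus 2. Its 16 hippocampal plates (559.6 to 969 CPM) all lay above its 16 cortical plates (322.9 to 522 CPM), again as divisions of the same 4 suspensions and without a count over all genes. By subtype, AST1 was highest of AST1 to AST4 in each suspension, with 665, 591, 861 and 853 CPM in cortex 1, cortex 2, hippocampus 1 and hippocampus 2, and AST2 lowest, with 372.5, 293.5, 369.1 and 351.2 CPM. In CPM, AST2 was the subtype in which the regions overlapped. Per 1000 spike-in counts they also overlapped within AST3 (11.3 to 12.1 in cortex, 11.2 to 12.3 in hippocampus). On that scale the lower cortical AST1 sum (10.6) lay below both cortical AST3 sums. Neurons held 127.1 and 175 CPM, whereas mural (26.5 ± 25.1 CPM, n = 4) and endothelial sums (11.3 ± 19.4, n = 3) were near 0.

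Differences between the subtypes were estimated with a quasi-likelihood model of the summed counts over 18233 genes (edgeR, Benjamini-Hochberg adjustment over all genes, called at an adjusted p under 0.05). All 10 genes passed the filter on low counts in this and in the other models on the full counts. On cells thinned to 50000 counts, 9 did in the models that compare subtypes or cell types, and 10 in those that compare regions. Each subtype was set against the other 4, weighted by cell number, with brain area as a term. Subtypes were defined on the counts of these same cells and the study lists several of the 10 genes among its subtype and common astrocyte genes, so the calls describe the size of the differences and are not evidence for them. In AST1, *Fam213a* was called higher (log2 fold change 0.96 ± 0.12 SE), 1 of the 10 genes where 0.0384% of all genes were called. Its level was above that of the remaining astrocytes in 4 of 4 suspensions. The call was lost in 6 of 15 other settings, namely spike-in scaling, limma, no filter, and leaving out cortex 2, hippocampus 1 or hippocampus 2 (log2 fold changes from 0.69 to 1.33 over all 15). *Mgst1*, *Gstm1*, *Gstm5* and *Gclm* were also above in 4 of 4 suspensions and were not called (log2 fold changes 1.09 ± 1.14, 0.33 ± 0.06, 0.64 ± 0.11 and 0.48 ± 1.30), and *Gpx1* was below in 4 of 4. Of all genes, 3.3% were above and 12.4% below in 4 of 4 suspensions.

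In AST2, *Fam213a* (−0.92 ± 0.14) and *Gstm1* (−0.42 ± 0.06) were called lower, against 0.0548% of all genes called, 0.011% higher and 0.0439% lower. The call of *Fam213a* was lost in 9 and that of *Gstm1* in 12 of 15 other settings, among them leaving out any 1 of the 4 suspensions. *Gstm1*, *Gstm3*, *Gstm5*, *Mgst1*, *Prdx6* and *Fam213a* all had a level below that of the other astrocytes in 4 of 4 suspensions in AST2, as 11.8% of all genes had. In AST3 none of the 10 genes was called, and 0.0% of all genes (0 genes, with 1.89% at an unadjusted p under 0.05). AST4 rests on 41 and 48 cells of hippocampus 1 and 2 alone. There, *Gstm5* (−1.29 ± 0.17) and *Gstm1* (−0.45 ± 0.09) were called lower, with 0.636% of all genes called (0.11% higher and 0.527% lower), and *Prdx6* had a log2 fold change of −0.88 ± 0.21 without a call. The call of *Gstm5* in AST4 was lost in 3 of 15 other settings, namely without hippocampus 1, without hippocampus 2 and with counts scaled to the spike-in RNA (log2 fold change −0.65). That of *Gstm1* was lost in 9 and turned in 1 of 15, among them without cortex 2, hippocampus 1 or hippocampus 2. With the suspension as a block, since the subtypes of a suspension come from the same animals, *Fam213a* and *Gstm1* in AST2 (edgeR adjusted p = 0.0936 each) and *Gstm1* in AST4 (0.0611) were no longer called. The direction of *Gstm1* in AST4 also depended on the scaling, since counts scaled to the spike-in RNA gave a log2 fold change of 0.18.

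AST5 libraries stood apart from the rest. The 26 cells had a median of 1674.5 detected genes, and a median of 1.59% of their counted reads fell outside exons, against 10.7% to 13.96% in the other subtypes. In AST5, *Fam213a* was called higher (0.60 ± 0.14), where 17% of all genes were called, 0.356% higher and 16.6% lower. The 10 genes took up 1.39% to 2.11% of gene counts in the 3 AST5 sums, and *Prdx6* reached 7315, 7058 and 10926 CPM. In the model, *Prdx6* had a log2 fold change of 0.36 ± 0.15 in AST5 and was not called. The call of *Fam213a* was lost without cortex 2 and without the filter on low counts. The 4 oligodendrocytic markers summed to 1035.7 CPM in the AST5 cells of cortex 1, against 62.9 and 0.23 CPM in the other AST5 sums. The part of the read composition and of these markers in the AST5 values was not tested. Without the AST5 sums in the model, the 10 genes had 8 calls instead of 5 over AST1 to AST4, while the share of all genes called rose from 0.182% to 0.806%.

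Brain area was compared within AST1, AST2 and AST3 in a model over 21204 genes with a coefficient for each subtype and region. Its 17 sums included several per suspension as separate points, so its p-values do not measure the spread between suspensions alone. Within AST1 none of the 10 genes was called and 0.0% of all genes (0 genes, with 614 at an unadjusted p under 0.05). Within AST2, *Prdx6* was lower in hippocampus (log2 fold change −0.77 ± 0.15, adjusted p = 0.0433, edgeR), 1 of 10 genes where 1.07% of all genes were called, 0.0189% higher and 1.05% lower. This rests on hippocampal sums of 10 and 22 cells, and it was no longer called in 9 of 13 other settings, among them leaving out cortex 1, cortex 2 or hippocampus 1 (no call, with a log2 fold change down to −0.48). Within AST3 none of the 10 genes was called, against 0.00472% of all genes. The log2 fold change of *Prdx6* was −0.32 ± 0.15 in AST1 and −0.62 ± 0.15 in AST3. The difference of the regional changes between AST3 and AST1 was called for none of the 10 genes (0.0% of all genes), and that between AST2 and AST1 for none either (0.363% of all genes).

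Over all astrocytes, 7 of the 10 genes had regions that did not overlap: *Mgst1*, *Fam213a*, *Gstm1*, *Gpx1* and *Gpx4* were higher in hippocampus, and *Prdx6* and *Gclm* lower. Of all 19160 genes tested, 46% did not overlap, 21.9% being higher and 24.1% lower in hippocampus. Per 1000 spike-in counts the regions of *Gpx4* overlapped (3.49 and 3.20 in cortex, 3.32 and 3.42 in hippocampus). In the model of the 4 sums none of them was called, and 0.0% of 19160 genes were (0 genes, with 2609 at an unadjusted p under 0.05). With 2 suspensions per region the exact permutation test cannot go below a two-sided p of 0.333, the value all 7 genes reached. The log2 fold changes were 1.76 ± 0.12 for *Mgst1*, 0.91 ± 0.07 for *Fam213a*, 0.53 ± 0.05 for *Gstm1*, 0.50 ± 0.15 for *Gpx1*, 0.23 ± 0.08 for *Gpx4*, −0.36 ± 0.05 for *Prdx6* and −0.74 ± 0.17 for *Gclm*, with adjusted p from 0.135 to 0.361 (edgeR). DESeq2 called 5 of the 10 genes on the same sums, where it called 9.51% of all genes.

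The comparison over all astrocytes includes the subtype shares, which differed between the regions. AST1 made up 12.4% and 11.02% of the astrocytes of the cortical suspensions and 68.96% and 64.02% of those of the hippocampal ones, and AST2 52.1% and 56.7% against 2.54% and 5.14%. *Fam213a*, high in AST1 and low in AST2, changed by 0.91 over all astrocytes on the log2 scale and had differences of 0.48 ± 0.19 within AST1, 0.00 ± 0.19 within AST2 and 0.51 ± 0.19 within AST3, the last of which came to 0.0054 when counts were scaled to the spike-in RNA. *Mgst1* had 1.16 ± 0.67, 0.90 ± 0.67 and 0.88 ± 0.67 within the same subtypes against 1.76 over all, the value within AST2 becoming −0.15 without hippocampus 1, a sum of 10 cells. *Gstm1* (0.40 ± 0.10, 0.32 ± 0.10 and 0.35 ± 0.10) came nearer to its value over all astrocytes, 0.53. *Prdx6* was at least as far apart within AST2 and AST3 as over all astrocytes. *Gpx1* and *Gpx4*, higher in hippocampus over all astrocytes, had differences of −0.73 ± 0.84 and −0.30 ± 0.37 within AST2, and *Gpx4* of 0.01 ± 0.37 within AST3.

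**Figure D4:**
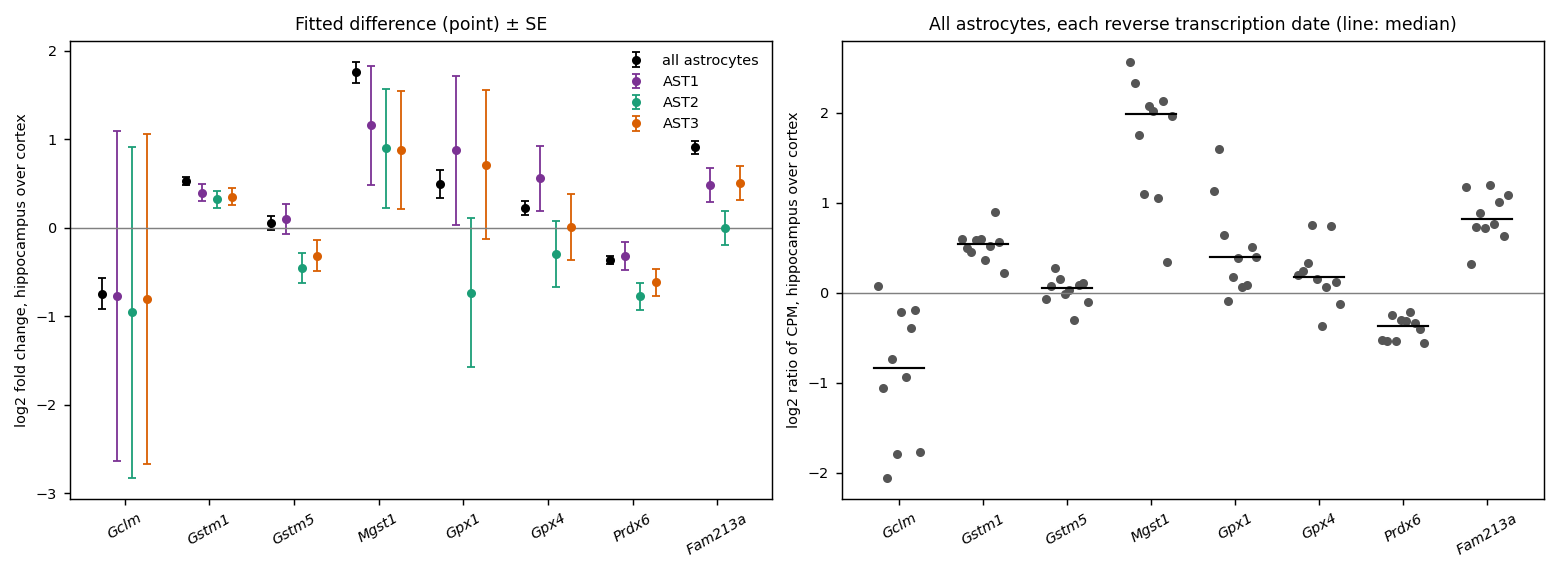
Left, fitted log2 fold change of hippocampus over cortex (point) with its SE (bar) over all astrocytes and within AST1, AST2 and AST3; right, log2 ratio of CPM of hippocampal over cortical astrocytes on each of 10 reverse transcription dates (points) with the median (line). *Mgst1*, *Gstm1* and *Fam213a* are above 0 and *Prdx6* below 0 on 10 of 10 dates, and *Gclc* and *Gstm3* are not plotted.

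Reverse transcription was run on 11 dates, 10 of which held cells of both regions. On each of them *Fam213a* (median log2 ratio 0.83), *Mgst1* (1.99) and *Gstm1* (0.54) were higher in hippocampus and *Prdx6* (−0.37) was lower, where 1.04% of all 19160 genes were higher on every date and 1.23% lower (2.27% in all), and *Gclm* was lower on 9 of 10 (−0.84). *Gstm5* was higher on 6 of 10 dates. A model of the sums per suspension and date, with the date as a term, called 5 of the 10 genes (*Mgst1*, *Fam213a*, *Gstm1*, *Prdx6* and *Gclm*) where 3.96% of 12638 genes were called. The dates divide the same 4 suspensions, so its p-values do not measure the spread between animals and are too small.

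In the other cell types the 10 genes were set against all astrocytes in a model over 17404 genes, with brain area as a term. The neuronal sums were from hippocampus only, while the astrocyte sums came from both regions. In mural cells *Gstm5* (log2 fold change −5.60 ± 0.40), *Prdx6* (−5.28 ± 0.47), *Gstm3* (−4.41 ± 1.2) and *Gstm1* (−3.86 ± 0.56) were called lower and *Gpx1* higher (1.58 ± 0.40), 5 of 10 genes against 15.1% of all genes (2.37% higher and 12.7% lower). *Gstm3* and *Gpx1* were no longer called in mural cells with the suspension as a block (edgeR adjusted p = 0.150 each). In endothelial cells *Gstm5* (−5.10 ± 0.45), *Prdx6* (−4.71 ± 0.52) and *Gstm1* (−2.40 ± 0.58) were called lower and *Gpx1* higher (2.89 ± 0.43), where 5.61% of all genes were called (1.59% higher and 4.02% lower). In neurons *Gstm1* (−8.22 ± 0.95), *Prdx6* (−6.87 ± 0.71) and *Gstm5* (−4.34 ± 0.52) were called lower, with 2.86% of all genes called (0.201% higher and 2.65% lower). *Gpx1* was not called in neurons (0.34 ± 0.50), although both neuronal sums lay above those of all astrocytes in CPM. *Gstm1*, *Gstm5* and *Prdx6* were thus lower in each of the 3 types. The calls of *Gstm5* and *Prdx6* held in 13 of 13 other settings in each type, whereas that of *Gstm1* was lost in 6 of 13 in endothelial cells (edgeR adjusted p up to 0.166, among them without cortex 1, hippocampus 1 or hippocampus 2), in 2 of 13 in mural cells (without hippocampus 1 or hippocampus 2) and in 1 of 13 in neurons (without hippocampus 1). *Gpx1* was no longer called in endothelial cells without cortex 1, hippocampus 1 or hippocampus 2, and in mural cells, like *Gstm3*, without any 1 of the 4 suspensions. Leaving out hippocampus 1 or hippocampus 2 left 1 neuronal sum, so the spread in those fits came from the other types. The fold change of *Gstm1* was nearest to 0 in endothelial cells. *Gpx4* was called in none (log2 fold changes −0.99 ± 0.35, 0.03 ± 0.38 and −0.88 ± 0.47 in mural, endothelial and neuronal cells, the last turning to 0.36 with spike-in scaling). The fits scale the sums by TMM, with 1 factor for all genes of a sum, so their fold changes can differ from ratios of CPM in size and sign. For *Gstm1*, *Gstm5*, *Prdx6*, *Gpx1* and *Gpx4* the fold changes lay below the ratios of mean CPM in each of the 3 types. The falls of *Gstm1*, *Gstm5* and *Prdx6* are thus larger, and the rises of *Gpx1* smaller, in the fits than in CPM. The mean CPM of *Gpx4* was higher in neurons than in astrocytes, against its negative fold change.

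A longer list of genes of glutathione and peroxide metabolism, none of them among the 10, was read from the same models, of which 88 to 92 passed the filter on low counts. Within the subtypes AST1, AST2 and AST3, none of 88 genes was called, where 0.0384%, 0.0548% and 0.0% of all genes were. In AST4, with 0.636% of all genes called, only *Selenop*, which encodes the secreted selenium carrier, was called lower (log2 fold change −3.45 ± 0.36), at 182.3 and 260 CPM against 2019 to 2261 CPM in AST1. In AST5, where 0.356% of all genes were called higher and 16.6% lower, 2 of 88 genes were called higher, *Glo1* (1.10 ± 0.30), a glutathione-dependent enzyme that detoxifies methylglyoxal, and *Sod1* (0.47 ± 0.13), the cytosolic superoxide dismutase, and 11 lower, among them *Ptges*, *Gpx8* and *Abcc1*, each at 0 in all AST5 sums. By region, *Ptges* and *Abcc1* of 92 genes were called lower in hippocampal AST2, where 1.05% of all genes were and the sums hold 10 and 22 cells, and no other gene of the list in AST1, AST2, AST3 or all astrocytes.

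The same list was compared between cell types. In mural cells 4 of 89 genes were higher and 14 lower, where 2.37% and 12.7% of all genes were. *Ggt5*, which encodes a gamma-glutamyl transferase that breaks down extracellular glutathione conjugates, stood at 875 ± 201.7 CPM in mural cells (n = 4) and at most 0.00557 CPM in astrocytes. *Ggt1*, the main enzyme that starts the breakdown of extracellular glutathione, was at 338.04 ± 103.8 CPM in mural and 9.17 ± 3.18 CPM in astrocyte sums (log2 fold change 4.60 ± 0.66), and *Sod3*, the extracellular superoxide dismutase, at 3669.6 ± 243.2 against 173.1 ± 87.2 CPM (3.95 ± 0.38). *Me1*, which makes NADPH, *Nqo1*, a quinone reductase, and *Gsto1*, an omega-class transferase, were at 0 in all mural sums and at 65.3 ± 9.83, 20.1 ± 6.22 and 21.3 ± 6.15 CPM in astrocytes. Endothelial cells had 2 of 89 genes higher, again *Ggt5* and *Ggt1*, and 4 lower (1.59% and 4.02% of all genes), among them *Prdx1*, a cytosolic peroxiredoxin (582 ± 39.9 against 961 ± 58.8 CPM). The endothelial sums also held 10008 to 17354 CPM of mural markers, whose part in *Ggt5* and *Ggt1* was not tested. Neurons had 1 of 89 genes higher, *Ggt5* (46.7 and 232.7 CPM), and 6 lower (0.201% and 2.65% of all genes), with *Sod3* and *Ggt1* at 0 in both sums and *Selenop* at most 0.141 CPM against 1760.2 ± 188 CPM in astrocytes.

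The median log2 fold change of the listed genes lay near that of all genes in AST1, AST2 and AST3 (0.17, −0.26 and 0.21 against 0.31, −0.14 and 0.17) and in all astrocytes by region (−0.06 against 0.01). It lay apart in AST5 (−0.75 against −4.55), in endothelial cells (−1.50 against −2.60) and in neurons (−2.98 against −2.34). In mural cells it was −1.18 against −1.36, and in AST4 0.18 against 0.05. By region within AST2 it was −0.54 against −0.75. These medians carry no spread. A gene at 0 in small sums takes a large negative fold change, such as −16.0 for *Ptges* in AST5. The part of such genes in the medians was not tested. The 10 genes had medians of 0.56, −0.50, −0.03, −0.50 and 0.25 in AST1, AST2, AST3, AST4 and AST5, and of −5.26, −4.14 and −5.87 in mural, endothelial and neuronal cells.

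The genes whose pattern was most like that of each gene were sought among 19211 genes over 26 sums of all types (Pearson's r of log2 CPM). The points share libraries and the split of astrocytes from other cells. *Gstm1* was nearest to *Gstm2-ps1* (r = 0.98) and *Gpx4* to *Gpx4-ps2* (0.97), pseudogenes with which they share sequence. *Gstm5* was nearest to *Mt3*, *Ppargc1a* and *Aldh1l1* (0.97, 0.97 and 0.96), *Prdx6* to *Acot11*, *Rgs20* and *Dbx2* (0.97 each), *Fam213a* to *Csdc2*, *Cpe* and *Syt11* (0.97, 0.94 and 0.94) and *Mgst1* to *Naprt* and *Tenm3* (0.93 and 0.92). *Gpx1* was nearest to *Dynll1*, *Myl12b* and *Tmsb4x* (0.91, 0.91 and 0.90), and *Gclm* to *Alpl*, *Chsy1* and *Cbr4* (0.86, 0.84 and 0.83). *Gstm3* was nearest to *Gm12043*, *Gm25193* and *BC016548* (0.86, 0.82 and 0.80), and *Gclc*, whose nearest gene had the lowest r of the 10, to *Bnip1*, *Adck1* and *Shisal1* (0.81, 0.77 and 0.77). Over the 17 astrocyte sums alone *Fam213a* kept an r of 0.92 with *Cpe* but had 0.34 with *Csdc2* and −0.40 with *Syt11*. Among the 10 genes over the astrocyte sums, *Fam213a* and *Gstm1* had the highest r (0.87) and *Gstm5* and *Prdx6* the next (0.85). *Gclc* and *Gclm*, the subunits of the same enzyme, had r = −0.53 there and −0.04 over the 26 sums. The former value includes small sums at 0, among them both hippocampal AST2 sums for *Gclc*. In AST5 of cortex 1, cortex 2 and hippocampus 1, *Gclc* stood at 112.3, 0 and 66.95 CPM and *Gclm* at 0, 429.6 and 0 CPM.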

How the data were processed

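Single-cell SMART-seq2 libraries were aligned by the authors with STAR 2.5.2b to GRCm38.p5 after quality checks with FastQC 0.11.4, and the deposited counts are raw reads per gene from HTSeq, uniquely mapped reads only, with 92 ERCC spike-ins listed beside the genes. The libraries carry no molecular identifiers, and floors and limits therefore reflect counting error alone. Per-cell files of 2030 cells were used, and 2023 columns of the series-wide table were not. One listed mural cell was not among these per-cell files and was left out, and 33 cells of cortex 1 not in the list of types and 15 without a type entered no comparison. Counts were summed per cell type and suspension (at least 5 cells) and fitted with edgeR 4.0.16 (TMM, filterByExpr, robust quasi-likelihood) in R 4.3.3. DESeq2 1.42.0 and limma 3.58.1 were alternatives. The replicate is the suspension, with 2 per region. The models held 17 sums for subtypes and for regions within subtypes and 13 for cell types. Several sums of a suspension thus entered as separate points, and these p-values do not measure the spread between suspensions alone. Only the model over all astrocytes by region, with 4 sums, set 2 suspensions against 2. Subtypes and cell types of a suspension come from the same animals, which is where the pairing of the block comes from, while the numbers 1 and 2 do not pair the regions. All 10 genes are described, of the pathway list up to 3 called genes with the largest change in each direction per comparison are named, and for each gene up to 3 of those with the highest correlation, with 1 gene not reported here. The genes, lists and tests were chosen with earlier results of these data known. The models were also run on simulated counts with known changes, drawn without an effect shared by the sums of a suspension, and the outcome is not given here.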

Additional observations from a re-analysis of the deposited data

Results flagged for a closer look

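In groups of 4 suspensions, 40 combinations of a gene and a cell type were examined for a suspension far from the other 3, a rule by which chance marks about 1 in 20 groups. *Mgst1* in AST2 was such a case, at 125.8 CPM in hippocampus 1 against 35.3 to 39.2 CPM in the others (gap over range 0.957), a sum of 10 cells. *Gclc* in mural cells was at 13.8 CPM in hippocampus 1 and at 0 in the others (gap over range 1.0), and *Gclm* in mural cells at 29.7 CPM in hippocampus 2 and at most 0.0278 CPM in the others (0.999).

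Cells outside the comparisons also held counts of these genes. *Prdx6* stood at 7009 CPM in the 15 cells without a type, which had a median of 1.61% of counted reads outside exons as in AST5, and at 4538 CPM in the 33 cells that are not in the list of types.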

How the results depend on the processing

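The number of calls among the 10 genes depended on the model. In parentheses is the share of all genes called. Over the 5 subtype comparisons, 6 calls (3.54%) became 3 with spike-in scaling (3.38%), 3 with the suspension as a replicate block (2.6%), 3 without a term for region (3.84%), 1 without the filter on low counts (2.17%), 10 with sums of at least 10 cells (2.67%), 12 with the other subtypes weighted equally (7.05%), and 1 to 4 when a suspension was left out (1.47% to 2.59%). Within subtypes by region, 1 call (0.358%) became 0 with spike-in scaling (0.358%), limma (0.145%), thinned cells (0.097%) or the suspension number as a block (0.118%), 2 with DESeq2 (8.62%), with sums of at least 10 cells (0.98%) and, a setting chosen after seeing the data, without the AST5 sums (1.24%), and 0 to 1 when a suspension was left out (0.0% to 1.67%). Over all astrocytes by region, 0 calls (0.0%) became 5 with DESeq2 (9.51%), 4 with limma (2.64%), 4 with thinned cells (1.48%) and 5 with the reverse transcription date as a term (3.96%), and stayed 0 when a suspension was left out (0.0%). In mural cells 5 calls (15.1%) became 9 with DESeq2 (28.4%), 8 with limma (22.8%), 3 without the filter (2.49%), 3 with the block (2.33%) and 2 to 3 when a suspension was left out (1.21% to 1.92%). In endothelial cells 4 calls (5.61%) became 7 with DESeq2 (36.5%), limma (27.9%) and sums of at least 2 cells (20.5%), and 2 to 4 when a suspension was left out (1.23% to 2.81%). In neurons 3 (2.86%) became 6 with DESeq2 (30.4%), 7 with limma (27%) and 2 to 3 when a suspension was left out (1.12% to 2.46%). The block changed no other call of the 10 genes than those given above. Under spike-in scaling 17 fold changes of the 10 genes turned, most of them small. Those of at least 0.3 in size before were *Gstm1* (0.18), *Fam213a* (0.08 from −0.54) in AST4, where the median of all genes moved from 0.05 to 0.70, *Gstm1* by region within AST3 (−0.15 from 0.35) and *Gpx4* in neurons (0.36 from −0.88). The region ratio of *Gstm5* became −0.16 and the fold change of *Gpx4* by region within AST3 −0.51 from 0.01. The causes were not tested. Limma worked on mean log2(CPM + 1) over cells, another scale. Few cells per sum limit *Gclc*, AST4, AST5 and hippocampal AST2.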
